A study of Mus musculus with 18 samples.

Results

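The data described here are the response of mouse tubular epithelial cells to transforming growth factor β (TGFβ) when both arms also received S-adenosyl methionine (SAM). They comprise 6 of the 18 libraries in the series, 3 labelled SAM and 3 labelled TGFβ with SAM, chosen by their sample titles, and all 55487 gene rows of the count table. Of these, 13469 genes held enough reads to be tested. The cells are im-TEC, a conditionally immortalized tubular line in which SV40 large T antigen is active under interferon-γ, and per the labels they were held at 37 °C without interferon-γ for 7 days before use. Treatment lasted 48 h, with SAM at 0.5 mM in every library of both arms and TGFβ at 10 ng/mL in the treated arm (TGFβ+SAM). For reference, TGFβ was also set against untreated control cells, and TGFβ with nicotinamide (NAM, 1 mM) against NAM alone, with 3 libraries in each of these 4 groups. All groups come from this 1 cell line, and nothing in the labels says that the replicates were separate cultures, so p-values measure the spread between these libraries, which may be technical.

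TGFβ signals through receptor kinases that phosphorylate SMAD proteins, and in tubular epithelium it is known for inducing matrix and contractile genes and for loss of transport functions. SAM is the methyl donor of the cell, and nicotinamide N-methyltransferase (NNMT), which the series concerns, spends SAM to methylate nicotinamide. The comparison asks how TGFβ acts when that donor is supplied.

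The 6 libraries held between 5744088 and 6598108 reads in genes. TGFβ+SAM replicate 3 stood apart from its group: 15999 genes were detected in it, against 15236 and 15273 in the other 2 libraries, and its read counts differed from theirs by 10.6 and 11.9 per degree of freedom in a chi-square comparison, where those 2 differed from each other by 5.94 and pairs of SAM libraries by 4.48 to 5.13. Results that rest on it are given with and without it. The treatment tags of SAM replicates 2 and 3 go against their titles, so counts were also taken without both. That leaves only SAM replicate 1 in its arm, without replication, so a call lost there cannot be laid to the tags. The share of reads outside genes was 27.9% to 28.2% with SAM and 25.9% to 26.6% with TGFβ+SAM (exact permutation p = 0.1, two-sided, the smallest that 3 against 3 libraries allow). SAM libraries also form a separate block of library numbers, so a level in SAM cannot be told apart from that block when it is set against control. Both arms of the comparison lie inside the block, and an additive difference between blocks cancels where 2 TGFβ effects are subtracted.

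Many proximal tubule markers had no read, although the name im-TEC itself gives no tubule segment. Of 15 proximal tubule markers, 9 had no read in any of the 6 libraries, among them the transcription factor Hnf4a and the transporters Slc5a12 and Slc22a6. The summed level of this list, carried mostly by Aqp1, was 1409 to 1486 CPM (counts scaled to library size) with SAM and 167 to 198 CPM with TGFβ+SAM. Of 19 distal and collecting duct markers, 11 had no read, and the list summed to 126 to 152 CPM with SAM and 232 to 275 CPM with TGFβ+SAM. Of 11 podocyte markers, 4 had no read, and the list summed to 599 to 651 CPM and 672 to 717 CPM in the same order. Among markers of other cells, 14 of 20 immune and 5 of 14 endothelial genes had no read, Ptprc and Cdh5 included. Of 14 fibroblast markers, 7 had no read, and the list summed to 1.21 to 2.04 CPM with SAM and 38.1 to 50.1 CPM with TGFβ+SAM, nearly all of it Col1a1. In bulk RNA, fewer cells of a type and less RNA per cell cannot be told apart.

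TGFβ moved a large part of the transcriptome of SAM-supplied cells. With edgeR's quasi-likelihood test and Benjamini-Hochberg adjustment over all genes, 1910 genes were higher (14.2% of those tested) and 1914 lower (14.2%) at an adjusted p under 0.05. At least 2-fold differences made up 545 of the higher genes (4.05%) and 709 of the lower ones (5.26%). Without TGFβ+SAM replicate 3 the counts were 1734 higher and 1809 lower, and without SAM replicates 2 and 3 they were 1094 and 1164. Reads of the higher genes made up 17.2% to 17.9% of a SAM library and 28.2% to 28.8% of a TGFβ+SAM library, and those of the lower genes 32.8% to 33.2% and 20.1% to 21.9%. The share of genes called depended on read depth, from 11.6% of genes with a mean under 5 CPM to 50.9% of those over 100 CPM, so weakly expressed genes that did not pass were often beyond the precision of these libraries.

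The smallest p-value of all was that of the contractile actin Acta2. Acta2 (ENSMUSG00000035783, minus strand, chr19:34241090-34255590 in GRCm38 with GENCODE M21) read 59.7, 48.0 and 43.4 CPM in SAM replicates 1 to 3 and 1346, 1355 and 1259.5 CPM in TGFβ+SAM replicates 1 to 3. Every treated library lay far above every SAM library, a log2 change of 4.71 ± 0.11 (SE, n = 3 and 3, adjusted p = 1.33e-30 by edgeR). The connective tissue growth factor Ccn2 rose from 187, 239 and 217 CPM to 2575, 3190 and 2523 CPM, and Pmepa1, a feedback inhibitor of TGFβ signalling, from 97.7, 100.8 and 107 CPM to 1393, 1508 and 1159 CPM. Their log2 changes were 3.69 ± 0.09 and 3.73 ± 0.10.

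**Figure D1:**
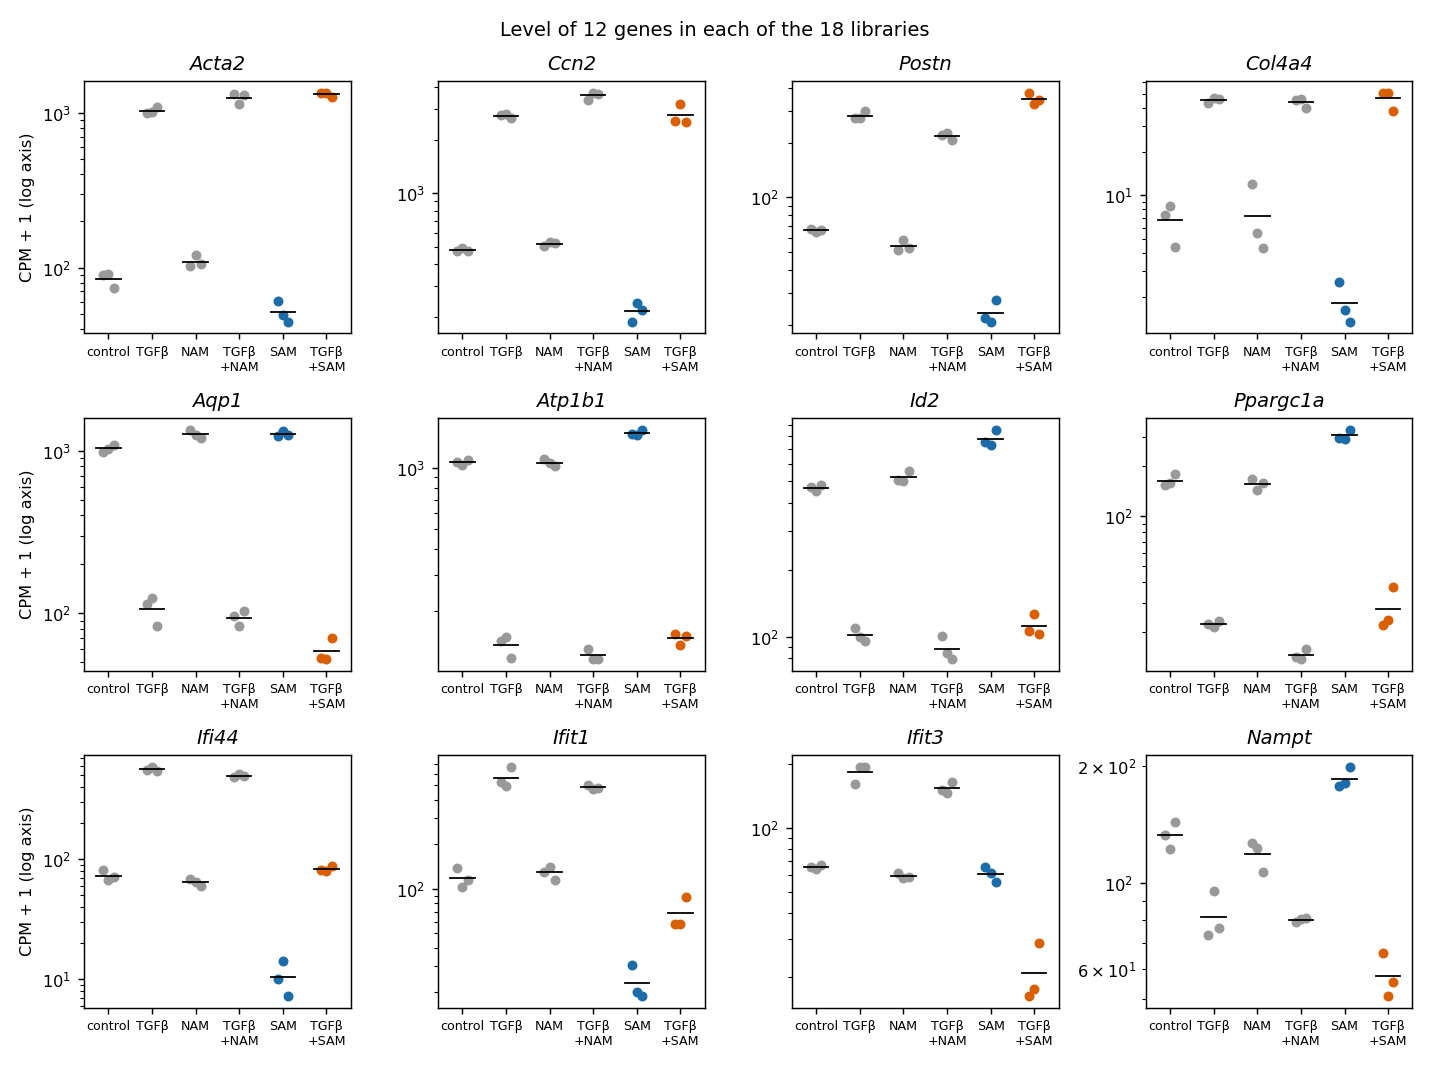
CPM plus 1 on a log axis for 12 genes in the 6 groups of the series, where each dot is 1 library and each bar the mean of 3 libraries. Acta2, Ccn2, Postn and Col4a4 rise with TGFβ in all 3 backgrounds, Aqp1, Atp1b1, Id2 and Ppargc1a fall, and Ifit3 rises without SAM and falls with it.

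Ligands, receptors and targets of the pathway each held genes that rose and genes that fell. Of 20 tested genes for TGFβ ligands, latency proteins and receptors, 5 rose and 3 fell, beside 14.2% of all genes each way. Without TGFβ+SAM replicate 1, 5 fell. Inhba, the subunit of activin A, rose from 55.3, 45.2 and 61.4 CPM to 511, 517 and 434 CPM (log2 change 3.18 ± 0.12). The latent TGFβ binding protein Ltbp1 rose by 3.07 ± 0.17 on the log2 scale, while its relative Ltbp3 changed by -0.98 ± 0.11. Lrrc32, which anchors latent TGFβ at the cell surface, had 2 reads over the SAM libraries and 471 over the TGFβ+SAM libraries, a ratio of 243 with an exact 95% counting interval of 67.0 to 2016. The ligand Tgfb1 (log2 change -0.07 ± 0.33) and the receptor Tgfbr1 (0.18 ± 0.23) did not pass, and the co-receptor Tgfbr3 fell by 1.55 on the log2 scale. Among 24 SMADs and feedback targets, 13 rose and 4 fell, with a median log2 change of 0.42 where the median of all genes was 0.00. The SMAD repressor Skil rose by 1.42 ± 0.12, whereas the inhibitory SMAD, Smad7, had a value of 0.35 ± 0.18 (adjusted p = 0.143).

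The branch that BMP ligands drive moved the other way. Of 20 tested BMP and ID genes, 10 fell and 3 rose, beside 14.2% of all genes each way, with a median log2 change of -0.97. The ID proteins hold back basic helix-loop-helix transcription factors. Id2 read 749.9, 725 and 853 CPM with SAM and 105, 125 and 102 CPM with TGFβ+SAM, a log2 change of -2.81 ± 0.10. Id4 changed by -3.69 ± 0.21 and Id1 by -1.15 ± 0.09. The ligand Bmp6 fell by 1.36 on the log2 scale. Bmp1, which despite its name is a procollagen protease, rose by 1.44 ± 0.11.

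Most matrix genes rose, where 14.2% of all genes tested rose and 14.2% fell. Of 33 tested collagens and matrix proteins 20 rose and 6 fell (median log2 change 0.67), and of 23 matricellular and crosslinking genes 16 rose and 4 fell (median 0.90). Postn, a matricellular protein of fibrotic tissue, read 20.8, 19.7 and 26.4 CPM with SAM and 376, 324 and 341 CPM with TGFβ+SAM (log2 change 3.96 ± 0.11). The basement membrane collagen Col4a4 was near the limit of detection with SAM, at 1.52, 0.625 and 0.345 CPM, and stood at 49.96, 49.9 and 36.9 CPM with TGFβ (log2 change 5.71 ± 0.36). Its partner chain Col4a3 had 1 read with SAM and 104 with TGFβ+SAM. Fibronectin, Fn1, was already abundant and rose by 1.70 ± 0.07. Fbln2, a matrix fibulin, rose by 3.35 ± 0.13, and the fibrillar collagen Col5a1 by 2.36 ± 0.11. The collagen Col1a1, the main source of the fibroblast marker sum, stayed low, at 0.911, 1.88 and 1.55 CPM with SAM and 46.4, 36.0 and 46.2 CPM with TGFβ+SAM. The crosslinking enzyme Loxl2 rose by 5.41 ± 0.47 from 6 reads.

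Not all matrix genes followed. Mgp, an inhibitor of calcification, read 80.0, 90.5 and 97.9 CPM with SAM and 0.354, 0.816 and 1.86 CPM with TGFβ+SAM, a log2 change of -6.40 ± 0.34. Osteopontin, Spp1, changed by -1.09 ± 0.10, and Pcolce, which enhances procollagen cleavage, by -1.52 ± 0.10. Among 31 matrix proteases and inhibitors 11 rose and 4 fell, beside 14.2% of all genes each way. The protease inhibitor Timp3 rose by 1.58 ± 0.08, the membrane metalloproteinase Mmp14 by 1.38 ± 0.10 and the cathepsin Ctsw by 6.83 ± 0.31, the last from 12 reads over the SAM libraries. Of 19 integrins 7 rose and 5 fell, with 4 rising without SAM replicates 2 and 3. Itgb1, the common β chain, rose by 1.19 ± 0.07, whereas Itgb6, part of an epithelial integrin that activates latent TGFβ, changed by -2.23 ± 0.24.

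Most contractile genes rose, where 14.2% of all genes tested rose and 14.2% fell. Of 33 tested members of the contractile and cytoskeletal list 25 rose and 1 fell (median log2 change 0.86), and of 22 targets of YAP and TEAD, transcription regulators that respond to mechanical tension, 13 rose and 3 fell (median 0.50). The troponin Tnnt2 read 11.5, 8.75 and 6.55 CPM with SAM and 238, 292 and 255 CPM with TGFβ+SAM, a log2 change of 4.86 ± 0.15. Calponin, Cnn1, an actin-binding protein of smooth muscle, went from 5.32, 4.22 and 4.66 CPM to 21.3, 24.3 and 24.1 CPM (2.29 ± 0.19). The smooth muscle gene Tagln rose by 3.34 ± 0.15, and the widely expressed Tpm1 and Actn1 by 1.69 ± 0.07 and 1.71 ± 0.09. The skeletal actin Acta1 rose by 6.15 ± 0.18, although reads of near-identical actin genes may be split uncertainly between them. Ccn1, a classical YAP target, rose from 772, 839 and 752 CPM to 1337, 1263 and 1337 CPM (0.74 ± 0.07).

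Serum response factor, which drives many contractile genes, binds a motif named the CArG box. Within 250 bases upstream of the start, that motif was found on either strand in 482 of 32851 RefSeq promoter windows (1.47%). Of the contractile and cytoskeletal genes with a window, 7 of 23 that rose held it and 0 of 6 that did not pass held it. The 7 were Acta1, Cnn2, Lima1, Myl6, Myl9, Srf and Vcl. Acta2, Tagln, Tnnt2, Cnn1, Tpm1 and Actn1 were not among them, for want of a match or of a window. Of the 36 genes in this list, 31 matched a RefSeq window. Both promoters below belong to genes of the list that rose and are shown so that the motif can be seen where it lies, in capitals, with 30 bases on each side. They run 5′ to 3′ on the gene's strand in RefSeq's GRCm38.p6, Acta1 at chr8:123894809-123894878 (minus) and Myl9 at chr2:156775273-156775342 (plus).
Acta1: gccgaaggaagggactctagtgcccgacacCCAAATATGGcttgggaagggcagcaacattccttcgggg
Myl9: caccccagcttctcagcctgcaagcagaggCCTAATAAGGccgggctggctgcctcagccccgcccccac
Myl9, a myosin light chain, read 2.89, 4.53 and 3.62 CPM with SAM and 40.8, 49.8 and 41.9 CPM with TGFβ+SAM (log2 change 3.58 ± 0.25). A match is a description of letters and no measure of binding.

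Epithelial and transport lists held genes that rose and genes that fell. The list counts in this paragraph stand beside 14.2% of all genes higher and 14.2% lower, and the smaller count of a list was often near that share. Of 24 junction and keratin genes 11 rose and 5 fell, among them the keratin Krt8 (log2 change 1.74 ± 0.11) and Cdh6 (0.97 ± 0.08), a cadherin of early tubules, on the higher side. The kidney cadherin Cdh16 changed by -1.47 ± 0.12 and the tight junction gene Cldn1 by -1.29 ± 0.11. Of 16 transcription factors linked to epithelial-mesenchymal transition 8 rose and 3 fell; 5 rose without SAM replicate 1 or TGFβ+SAM replicate 2, and 4 without SAM replicates 2 and 3. Runx1 rose by 1.14 ± 0.12 and Twist2 changed by -1.19 ± 0.27. Of 30 tubule transporters 12 fell and 4 rose (median -0.46), and of 17 kidney transcription factors 9 fell and 3 rose (median -0.41).

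The water channel Aqp1 showed the smallest p-value among genes that fell. Aqp1 (ENSMUSG00000004655, plus strand, chr6:55336432-55348555) read 1237, 1311 and 1252 CPM with SAM and 52.1, 51.1 and 69.2 CPM with TGFβ+SAM. All 3 treated libraries lay below all SAM libraries, a log2 change of -4.46 ± 0.12 (adjusted p = 4.93e-29). Atp1b1, a sodium pump subunit, fell from 1463, 1461 and 1545 CPM to 152, 135 and 149.7 CPM (log2 change -3.36 ± 0.09). The phosphate carrier Slc20a1 went against the list, at 1.95 ± 0.10. Ppargc1a, a coactivator of mitochondrial biogenesis, read 293, 289 and 329 CPM with SAM and 21.1, 22.8 and 36.3 CPM with TGFβ+SAM (-3.50 ± 0.13). Replicate 3 was the highest of the treated libraries for Aqp1 and Ppargc1a and still lay far below the SAM range. Gata3 and Pax2, transcription factors of nephric development, changed by -1.31 ± 0.17 and -0.97 ± 0.13.

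Most respiratory chain genes fell. Of 53 tested nuclear genes of oxidative phosphorylation 47 fell and 0 rose (median log2 change -0.55). Also 0 rose at an unadjusted p under 0.05 by edgeR and 0 by DESeq2. All 9 tested mitochondrially encoded genes fell by edgeR (median -0.58), while 7 fell by DESeq2 and 8 without TGFβ+SAM replicate 3. The median of all genes was 0.00, and 14.2% of them rose and 14.2% fell. Atp5a1, a subunit of ATP synthase, read 625, 573 and 589 CPM with SAM and 328, 308 and 326 CPM with TGFβ+SAM (-0.89 ± 0.09), and the complex I subunit Ndufb8 also changed by -0.89 ± 0.09. Mitochondrial transcripts made up 10.1% to 10.5% of gene reads with SAM and 6.87% to 7.73% with TGFβ+SAM (exact permutation p = 0.1, the smallest possible). Of 37 fatty acid oxidation genes 13 fell and 3 rose (median -0.34; 1 rose without SAM replicate 3), and of 32 glycolysis and hypoxia genes 17 fell and 1 rose (median -0.68). The glycolytic enzymes Aldoa and Hk1 changed by -1.49 ± 0.09 and -1.16 ± 0.11. Vegfa, the vascular growth factor, was the member that rose, at 0.68 ± 0.14.

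Most antioxidant genes fell too, where 14.2% of all genes tested fell and 14.2% rose. Of 53 NRF2 and glutathione genes 32 fell and 4 rose (median log2 change -0.56). The glutathione transferase Gstm1 read 758, 721 and 744 CPM with SAM and 49.3, 33.4 and 44.4 CPM with TGFβ+SAM (-4.13 ± 0.13), with the reservation that Gstm genes are close copies. Ferritin heavy chain, Fth1, changed by -1.74 ± 0.08 and Gclm, a subunit of the enzyme that makes glutathione, by -1.21 ± 0.08. Gsto1 rose by 1.70 ± 0.09. Of 40 cholesterol and lipid synthesis genes 16 rose and 4 fell, or 10 and 2 without SAM replicates 2 and 3. Cyp51, an enzyme of the sterol pathway, was among those that rose, at 0.88.

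**Figure D2:**
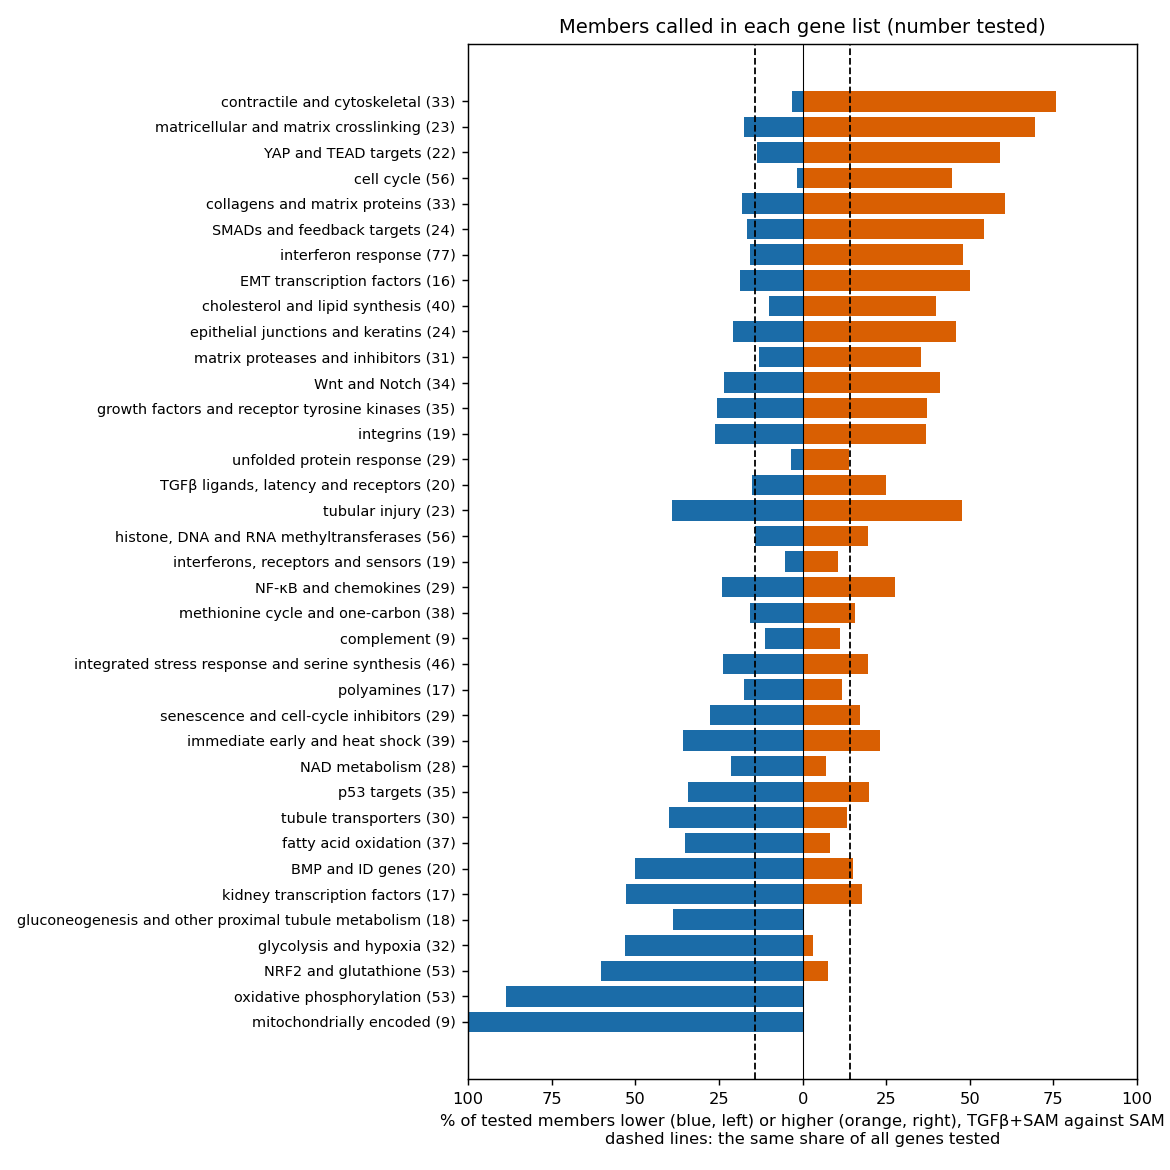
For each gene list, the percent of its tested members that were lower (to the left) or higher (to the right) with TGFβ+SAM than with SAM at an adjusted p under 0.05, with the share of all genes, 14.2% each way, as dashed lines. Oxidative phosphorylation (47 of 53) and the mitochondrially encoded genes (9 of 9) reach farthest to the left among the lists drawn, and contractile genes (25 of 33) farthest to the right.

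No change in Nnmt was detected. Nnmt (ENSMUSG00000032271, minus strand, chr9:48591877-48605153) read 21.9, 18.4 and 17.8 CPM with SAM and 16.7, 21.7 and 20.3 CPM with TGFβ+SAM. These ranges overlap, and the log2 difference was 0.02 ± 0.17 (adjusted p = 0.962). Of 28 NAD genes 6 fell and 2 rose, so 28.6% were called beside 28.4% of all genes tested. Only 1 rose without SAM replicate 1, SAM replicate 2 or TGFβ+SAM replicate 1. Nampt, which recycles nicotinamide to NAD, read 176, 179.6 and 198 CPM with SAM and 65.0, 49.9 and 54.5 CPM with TGFβ+SAM, a log2 change of -1.71 ± 0.11 (adjusted p = 9.16e-16). The mitochondrial deacylases Sirt3 and Sirt5 changed by -1.52 ± 0.31 and -1.43 ± 0.30, and the ectoenzyme Bst1 by -0.48 ± 0.09. Sirt2 (-0.45) and the mitochondrial NAD carrier Slc25a51 (-0.29) were the other members that fell. Slc25a51 did not pass when any 1 of the 6 libraries other than TGFβ+SAM replicate 1 was left out (adjusted p = 0.054 without TGFβ+SAM replicate 3 and 0.117 without TGFβ+SAM replicate 2). Nt5e, an ectonucleotidase, rose by 2.32 ± 0.13 and the tankyrase Tnks by 0.42 ± 0.13. Tnks did not pass without SAM replicate 1, SAM replicate 2 or TGFβ+SAM replicate 1 (0.27, adjusted p = 0.177). Without SAM replicates 2 and 3, Sirt2, Slc25a51 and Tnks did not pass.

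Genes of the methionine cycle and one-carbon metabolism were called about as often as genes in general. Of 38 methionine-cycle and one-carbon genes 6 rose and 6 fell, beside 14.2% of all genes each way, with a median log2 change of 0.01, and 3 rose without SAM replicates 2 and 3. Mat2a, the SAM synthetase of most tissues, had a value of 0.00, whereas its regulatory partner Mat2b changed by -0.46 ± 0.13. The largest fall among all named genes was that of Inmt, an N-methyltransferase of indolamines, which read 79.3, 61.6 and 77.9 CPM with SAM and 0, 0 and 1.09 CPM with TGFβ+SAM. It changed by -7.50 ± 0.37 on the log2 scale, from 1368 reads to 7. Chdh, choline dehydrogenase, changed by -1.80 ± 0.17 and Ahcyl2 by -1.02 ± 0.16, and Ftcd (-1.95) fell as well. The folate enzymes Mthfd2 (0.49), Mthfd1l (0.73) and Tyms (0.40) rose, as did methionine synthase, Mtr (0.56), and adenosine kinase, Adk (0.55). Without TGFβ+SAM replicate 3, Adk no longer passed (0.38, adjusted p = 0.0523). Without SAM replicates 2 and 3, Ftcd stood at -0.65 (adjusted p = 0.655) and Tyms at 0.23 (adjusted p = 0.44), and Mat2b, Mthfd1l and Mtr did not pass either. Tyms also did not pass without SAM replicate 3 or without TGFβ+SAM replicate 2. Of 17 polyamine genes 3 fell and 2 rose, a share near that of all genes (14.2% each way). The 3 were the rate-limiting Odc1 (-1.15 ± 0.17), Atp13a2 (-0.83) and Smox (-0.55), the last of which did not pass without SAM replicate 3 (-0.42, adjusted p = 0.0677). Azin1 and Dohh rose by 0.27 and 0.46. Azin1 did not pass without SAM replicate 2, SAM replicate 3, TGFβ+SAM replicate 1 or TGFβ+SAM replicate 3, nor did Dohh without SAM replicate 1, SAM replicate 2, TGFβ+SAM replicate 1 or TGFβ+SAM replicate 2, and neither passed without SAM replicates 2 and 3. Among 56 histone, DNA and RNA methyltransferase genes 11 rose and 8 fell (median -0.01), beside 14.2% of all genes each way. The number that rose was 7, 6 and 7 without SAM replicate 1, SAM replicate 2 and TGFβ+SAM replicate 1.

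Some cell-cycle genes rose, by small amounts, where 14.2% of all genes tested rose and 14.2% fell. Of 56 tested, 25 rose, 1, E2f2, fell and 30 did not pass (median log2 change 0.27); 15 still rose without SAM replicates 2 and 3. Rrm1, the large subunit of ribonucleotide reductase, rose by 0.58 ± 0.09 and the replication helicase gene Mcm3 by 0.58 ± 0.09. The G1 cyclin Ccnd1, listed with the senescence genes, went from 699.5, 746 and 769 CPM to 173, 136 and 133 CPM (-2.33 ± 0.10). Of 29 senescence and cell-cycle inhibitor genes 5 rose and 8 fell, beside 14.2% of all genes each way. The cyclin-dependent kinase inhibitors Cdkn2b and Cdkn1a rose by 0.64 ± 0.11 and 0.31 ± 0.10, while Cdkn1b and Cdkn2c changed by -0.66 ± 0.10 and -0.95 ± 0.14. Of 35 p53 targets 7 rose and 12 fell, beside 14.2% of all genes each way. The proapoptotic Bbc3 changed by -1.19 ± 0.12. These p53 counts were 1 and 5 without SAM replicates 2 and 3, and 4 rose without SAM replicate 1 or TGFβ+SAM replicate 2.

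Responses of stress and growth genes were mixed. The list counts in this paragraph stand beside 14.2% of all genes higher and 14.2% lower. Of 39 immediate early and heat shock genes 9 rose (3 without SAM replicates 2 and 3) and 14 fell, including Atf3 (36.1, 31.6 and 29.3 CPM to 5.85, 4.24 and 3.57 CPM, -2.83 ± 0.24), Fos (-2.75) and Egr1 (-1.94). Of 46 integrated stress response genes 9 rose (4 without SAM replicates 2 and 3) and 11 fell. Of 29 unfolded protein response genes 4 rose (7 without TGFβ+SAM replicate 3) and 1 fell. That is 17.2% called, below the 28.4% of all genes tested. Of 35 growth factor and receptor kinase genes 13 rose and 9 fell. Pdgfb, a growth factor for mesenchymal cells, rose by 2.14. Of 34 Wnt and Notch genes 14 rose and 8 fell, with the Notch ligand Jag1 at 1.14 and the Wnt ligand Wnt7a at 2.56. Among 23 tubular injury genes 11 rose and 9 fell. The chaperone Clu rose by 2.12 ± 0.09 and the lipid droplet protein Plin2 by 1.89 ± 0.10, while the complement gene C3 changed by -3.85 ± 0.37. Of 29 NF-κB and chemokine genes 8 rose and 7 fell.

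Interferon-response genes that passed with SAM mostly rose. Of 77 tested, 37 rose and 12 fell with SAM (median log2 change 0.69), beside 14.2% of all genes each way. The share that fell was near that of all genes. In cells without supplement 60 rose and 0 fell by edgeR (2 fell at an unadjusted p under 0.05, median 1.20). There, 9.7% of all genes were higher and 9.74% lower. With NAM 53 rose and 2 fell (median 1.21; 10.9% and 11% of all genes). Without TGFβ+SAM replicate 3, the counts with SAM were 34 and 10, and without SAM replicates 2 and 3 they were 27 and 8. Over the whole list the mean log2(CPM + 1) was 3.78 to 3.97 in the SAM libraries and 4.26 to 4.49 in the TGFβ+SAM libraries, replicate 3 being the highest. The control libraries stood at 4.85 to 5.04 and the TGFβ libraries at 6.01 to 6.09.

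Genes that rose included Ifi44, Isg15, Cxcl10 and Ifit1. Ifi44 read 8.96, 13.3 and 6.21 CPM with SAM and 79.7, 79.0 and 86.4 CPM with TGFβ+SAM (log2 change 3.09 ± 0.14). The ubiquitin-like Isg15 read 46.6, 71.3 and 44.5 CPM and then 198, 197 and 266 CPM (2.02 ± 0.16). The T cell chemokine Cxcl10 rose by 1.92 ± 0.13, and Ifit1, which binds viral RNA lacking cap methylation, by 1.60 ± 0.16. For these 4 genes the groups did not overlap, as was so for 38.9% of all genes tested, and replicate 3 was the highest of its group. The difference between the TGFβ effect with SAM and that without supplement did not pass for any of them (0.14, -0.27, -0.13 and -0.66).

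Ifit3, whose product partners Ifit1, fell with SAM. Ifit3 (ENSMUSG00000074896, plus strand, chr19:34583531-34588731) read 64.2, 60.5 and 54.5 CPM with SAM and 15.2, 16.5 and 27.8 CPM with TGFβ+SAM, a log2 change of -1.58 ± 0.15 (adjusted p = 1.02e-11). In the same order of replicates it read 64.8, 63.1 and 65.9 CPM in control and 159, 193 and 192 CPM with TGFβ, a log2 change of 1.49. For Ifit3 the ranges of the SAM and control libraries overlapped, and the treated libraries went opposite ways. The difference of the 2 effects was -3.07 ± 0.19 (adjusted p = 1.3e-14). Its near-identical neighbour Ifit3b, with which reads may be shared, differed by -3.21 ± 0.26. The interferon-inducible GTPase Iigp1 read 49.2, 44.5 and 57.8 CPM with SAM and 16.7, 18.1 and 27.5 CPM with TGFβ+SAM (-1.27 ± 0.14), against 0.37 without supplement. Oas3, a sensor of double-stranded RNA, fell at a low level, with overlapping ranges (-0.98 ± 0.36 with SAM and 1.01 without). Its difference did not pass without SAM replicates 2 and 3 (-1.44, adjusted p = 0.399). These 4 were the members that fell with SAM and rose without supplement. Cd274, Ifit2, Psmb9 and Samd9l fell with SAM, did not pass without supplement, and differed between the 2 effects.

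A further 6 members rose in both backgrounds but by less with SAM, among them Igtp, Lgals3bp, Parp14, Rsad2 and Trim30a. The antiviral enzyme Rsad2 rose by 0.63 ± 0.19 with SAM and by 2.30 without, a difference of -1.68 ± 0.25 that did not pass without SAM replicates 2 and 3 (-1.23, adjusted p = 0.0815). Its CPM ranges with SAM and with TGFβ+SAM overlapped. Stat2, a transcription factor of the interferon pathway, had a value of 0.36 ± 0.18 with SAM and rose by 1.38 without (difference -1.02 ± 0.24). Irf9, a DNA-binding factor of the same pathway, rose by 0.82 ± 0.12 with SAM and 0.67 without (difference 0.15 ± 0.17). In all, the TGFβ effect was lower with SAM than without supplement for 17 of the 77 genes and higher for 0, beside 0.631% and 0.802% of all genes tested. At an unadjusted p under 0.05 edgeR gave 4 higher, and DESeq2 called 1 higher and 21 lower. Against NAM, 15 were lower and 1 was higher, beside 0.535% and 0.69%. The 17 lower genes became 23 without TGFβ+SAM replicate 3, 11 without either SAM replicate 2 or TGFβ+SAM replicate 2, and 7 without SAM replicates 2 and 3; the 15 against NAM became 17 without TGFβ+SAM replicate 3 and 7 without SAM replicates 2 and 3. Another 29 members rose in both backgrounds with no difference that passed. The 20 immune markers, 14 of them at 0 reads, summed to 134 to 149 CPM with SAM and 95.2 to 107 CPM with TGFβ+SAM. Csf1r had 1842 reads with SAM and 1332 with TGFβ+SAM, Cd68 490 and 235, Cd14 355 and 201, and Fcer1g 9 and 47. Their part in the interferon result was not tested.

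Promoters of genes that went opposite ways held matches to the same motif. The interferon-stimulated response element was searched on both strands as GAAA, any 2 letters and GAAA again, or on the other strand TTTC, any 2 letters and TTTC, within 250 bases upstream of the start, matches being allowed to overlap. It was found in 978 of 32851 RefSeq windows (2.98%). Of the 82 listed interferon-response genes, 62 had a window. It was present in 15 of 28 members that rose with SAM, 3 of 10 that fell and 12 of 21 that did not pass. Ifit1 and Ifit3 are of the same family. In the sequences below, matches are in capitals with 30 bases around them. The sequences set Isg15 and Ifit1, which rose in both backgrounds, beside Ifit3, which reversed. They are from RefSeq's GRCm38.p6, 5′ to 3′ on the gene's strand, Isg15 at chr4:156200845-156200926 (minus), Ifit1 at chr19:34640755-34640843 (plus) and Ifit3 at chr19:34583343-34583446 (plus).
Isg15: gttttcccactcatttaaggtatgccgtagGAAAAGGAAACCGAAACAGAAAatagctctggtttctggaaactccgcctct
Ifit1: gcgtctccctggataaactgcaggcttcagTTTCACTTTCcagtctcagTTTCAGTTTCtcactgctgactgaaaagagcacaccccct
Ifit3: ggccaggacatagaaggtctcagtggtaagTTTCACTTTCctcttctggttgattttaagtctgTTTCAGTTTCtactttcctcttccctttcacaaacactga
Ifit1 and Ifit3 each held 2 matches and Isg15 held 3 overlapping ones. The stretch of the Ifit3b promoter at chr19:34607739-34607842 (plus) was the same as that of Ifit3 in all 104 letters. The presence of these letters says nothing of binding by a factor.

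Across genes, the response with SAM resembled the response without supplement and was wider. The 2 comparisons share no library. In the reference comparison, TGFβ replicate 3 held 4171170 reads in genes, against at least 5744088 in each of the 6 libraries with SAM. Of the 1910 genes higher with SAM, 955 were also higher without supplement, 50% of the first list and 73.1% of the second. Of the 1914 lower, 1038 were also lower (54.2% and 79.1%). No gene higher with SAM was lower without supplement, and 5 genes lower with SAM were higher without it. Across 10539 genes with at least 5 CPM the log2 changes had a Pearson correlation of 0.845, with SDs of 0.72 with SAM and 0.58 without; genes within a library are not independent. Against NAM, 1037 of the higher genes (54.3% and 70.8%) and 1125 of the lower ones (58.8% and 76.0%) were shared.

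**Figure D3:**
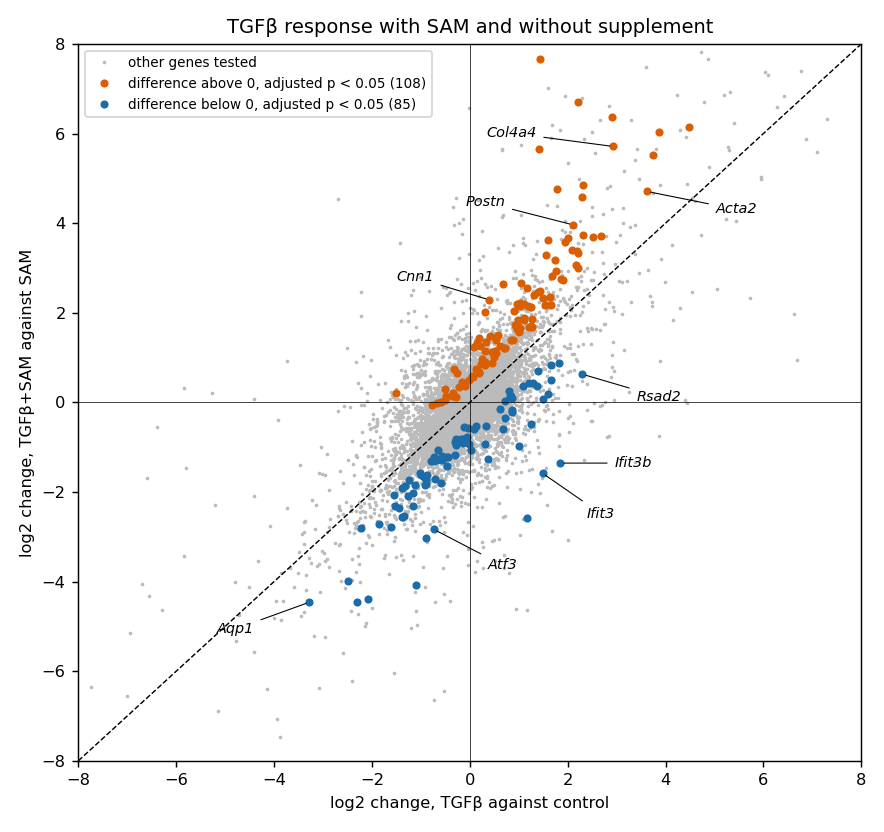
Fitted log2 change with TGFβ without supplement (horizontal) and with SAM (vertical) for the 13469 tested genes, 4 of which lie outside the axes, with equal changes on the dashed line. Orange marks the 108 genes whose effect was higher with SAM and blue the 85 whose effect was lower, Ifit3 among the latter.

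The difference between the 2 effects was itself tested for every gene. It passed for 108 genes in the higher direction (0.802% of those tested) and 85 in the lower (0.631%) against the effect without supplement, and for 93 (0.69%) and 72 (0.535%) against the effect with NAM. The groups labelled SAM enter both tests, so the 2 sets of calls are not independent. At an unadjusted p under 0.05 the numbers were 1403 (10.4%) and 1518 (11.3%) in either direction. Of the 108 genes, 98 rose with TGFβ in SAM-supplied cells. The untreated mean was lower with SAM than in control for 103 of the 108. Over the 108, the untreated means differed by a median of -0.74 on the log2 scale and the treated means by 0.11. Of the 85 genes, 64 fell with TGFβ in SAM-supplied cells, and the treated mean was lower with SAM for 75 (median -0.62), the untreated mean differing by a median of 0.30. Among all 13469 genes tested, the untreated mean was lower with SAM for 6691 and the treated mean for 6862. Both sets of genes were picked by a difference that includes these means, so the level counts are no separate evidence. These level differences lie between library-number blocks.

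Contractile and matrix genes were among those with a larger rise. For all genes tested, 0.802% had a higher effect with SAM than without supplement and 0.631% a lower one. Of the contractile list, 12 of 33 tested genes had a higher effect with SAM than without supplement and 0 a lower one. The same counts were 7 and 0 of 22 YAP and TEAD targets, 6 and 0 of 23 matricellular genes, and 3 and 0 of 33 collagens and matrix proteins. For these 4 lists edgeR gave 1, 1, 2 and 2 lower at an unadjusted p under 0.05, and DESeq2 called 0, 0, 0 and 1 lower. Without SAM replicates 2 and 3 the higher counts were 7, 3, 5 and 0, and without TGFβ+SAM replicate 3 they were 13, 5, 6 and 5. For Postn the control mean was 64.9 CPM and the TGFβ mean 280.2 CPM, a log2 change of 2.11, so the effect with SAM was larger by 1.85 ± 0.15 (adjusted p = 7.2e-12). Acta2 differed by 1.09 ± 0.14 and Tnnt2 by 2.55 ± 0.19. Cnn1 rose with SAM, while its change without supplement, from 29.7 to 39.1 CPM, was 0.40 and did not pass (difference 1.89 ± 0.24). The treated levels of Cnn1 were lower with SAM than without. Ccn1 likewise rose with SAM and had 0.12 without (difference 0.62 ± 0.10).

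Some single transport and metabolic genes had a lower effect. Of 30 tubule transporters 3 had a lower effect and 1 a higher one, beside 0.631% and 0.802% of all genes tested. Of 32 glycolysis and hypoxia genes 1 had a lower effect and 2 a higher one. In the lists of oxidative phosphorylation, mitochondrially encoded and fatty acid oxidation genes, 0 members passed in either direction. Aqp1 fell by 4.46 with SAM and by 3.28 without supplement on the log2 scale, a difference of -1.18 ± 0.15. The aldehyde- and retinol-oxidizing Adh7 differed by -0.91 ± 0.14, and Nampt, which changed by -0.70 without supplement, by -1.01 ± 0.16. Atf3 differed by -2.10 ± 0.32. Of the NRF2 and glutathione list, 4 of 53 genes had a lower effect and 0 a higher one (edgeR; 2 at an unadjusted p under 0.05, and 1 by DESeq2). The lower count was 2 without control replicate 2, control replicate 3 or TGFβ+SAM replicate 2, and 1 without TGFβ replicate 1 or without SAM replicates 2 and 3. The endocytic receptor Lrp2, a proximal tubule marker, had 0.29 ± 0.12 with SAM (adjusted p = 0.0772) and changed by -0.51 without supplement, so its effect was higher with SAM by 0.80 ± 0.17.

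**Figure D4:**
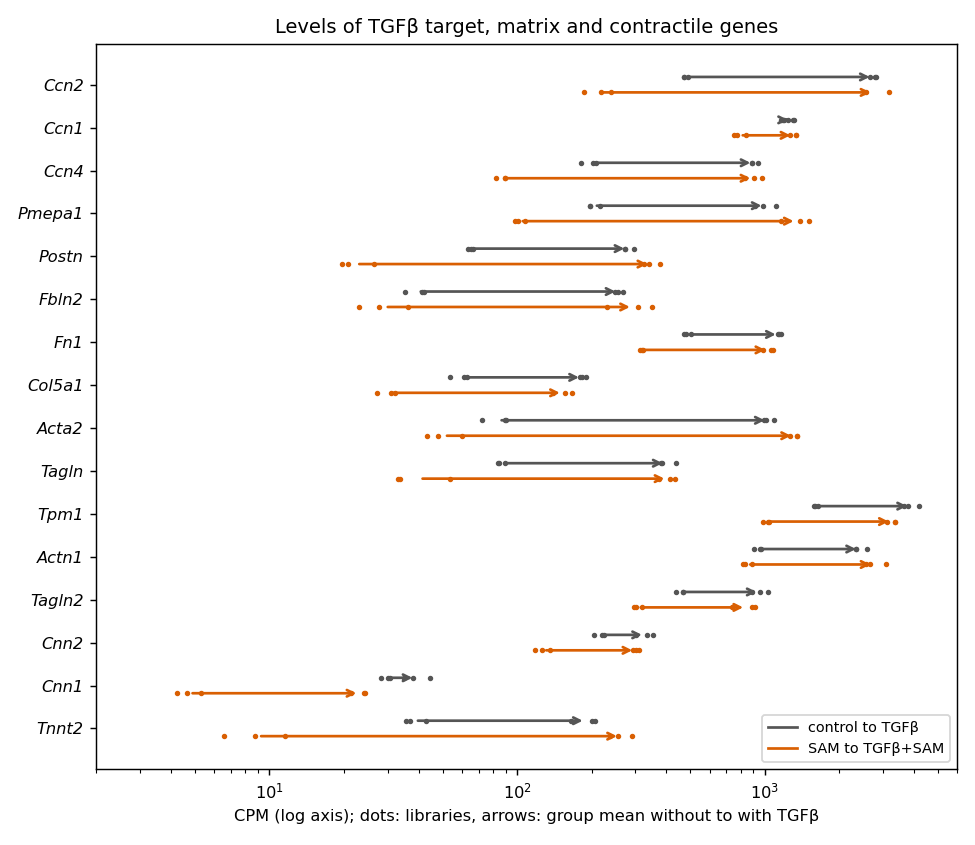
Mean CPM on a log axis for 16 genes, with an arrow from the mean without TGFβ to the mean with it, for control cells (grey) and SAM-supplied cells (orange). The arrows for Postn and Tnnt2 start lower with SAM, and that for Cnn1 ends lower with SAM than without supplement.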

How the data were processed

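Polyadenylated RNA of im-TEC was measured with QuantSeq 3′ FWD libraries made from 100 ng of RNA, per the labels' protocols, so a value reflects reads near a transcript's 3′ end. The authors deposited raw counts, whole reads per gene and library, with totals that differ between libraries. STAR and HTSeq are named in the submitters' processing notes, as is the build GRCh38, while all 55487 gene identifiers are mouse Ensembl identifiers; versions, strand setting and annotation are not given in the sources used here. Without the strand setting, overlapping and antisense genes cannot be told apart. Symbols came from GENCODE M21 (GRCm38) for 55141 identifiers. The 5 special rows, 2 of which hold reads, were left out, reads outside genes being 22.8% to 28.2% of a library.

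Groups were taken from titles. Counts were fitted with edgeR 4.0.16 in R 4.3.3: TMM scaling, filterByExpr with a minimum count of 10, and 1 quasi-likelihood fit of 18 libraries with a term per group. Two-sided tests were adjusted by Benjamini-Hochberg over 13469 genes, and an adjusted p under 0.05 is called a rise or fall. CPM are TMM-scaled; SE is the fold divided by the root of F. Fitted fold changes of genes with few reads depend on the prior count and are no bounds. Counting intervals cover counting error only. Scripts were tested on simulated data. Named genes were Nnmt, passing NAD, methionine-cycle and polyamine genes, the 15 largest rises and falls with a mean of at least 5 CPM and no overlap, the 5 smallest p-values each way, the 10 largest interactions each way, and up to 5 members of each list by p; others are named after their values were seen. Members and lists were chosen with earlier results of these data known. Genes that have no symbol were left out. A few that fall under this rule are not reported here. Alternatives were DESeq2 1.42.0, its size factors, library totals, other count filters, fewer libraries and a replicate block. Same-numbered libraries did not deviate together (correlations 0.011, -0.0082 and -0.025), so no pairing was detected. These correlations took in weakly read genes and cannot exclude a small effect shared by same-numbered libraries.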

Additional observations from a re-analysis of the deposited data

Results flagged for a closer look

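The genes below are those in which the effect of TGFβ with SAM differed, by the interaction test of edgeR (adjusted p under 0.05), from the effect in another background by the largest amounts among genes with a mean of at least 5 CPM. Values are differences of log2 changes, and up to 10 are given each way.

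Against the effect without supplement, the higher values were those of the collagen Col4a4 (2.78), the troponin Tnnt2 (2.55), the adenylate cyclase Adcy7 (2.30), the interleukin-33 receptor Il1rl1 (2.17), the chemokine Ccl17 (1.97), Cnn1 (1.89), Postn (1.85) and Fam198b (1.74). The lower values were those of Ifit3b (-3.21), Ifit3 (-3.07), the cytochrome oxidase subunit Cox7a1 (-2.97), the chemokine Cxcl5 (-2.16), the adrenergic receptor Adra1b (-2.13), Atf3 (-2.10), Oas3 (-2.00), Rnf213 (-1.73), Rsad2 (-1.68) and Iigp1 (-1.64). Cox7a1 read 12.6, 11.3 and 12.6 CPM with SAM and, with TGFβ+SAM, 0, 0.326 and 1.71 CPM. The calls of Adcy7, Il1rl1, Cox7a1, Cxcl5 and Adra1b were each lost when 1 or another single library was left out, and that of Cxcl5 also without TGFβ+SAM replicate 3 (-1.91, adjusted p = 0.118). Without SAM replicates 2 and 3, the calls of Col4a4 (1.97, adjusted p = 0.181), Oas3 (-1.44, adjusted p = 0.399), Rnf213 (-1.02, adjusted p = 0.105) and Rsad2 (-1.23, adjusted p = 0.0815) were lost too.

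Against the effect with NAM, the higher values were those of the cytokine Tnfsf15 (6.96), the calcium-binding S100g (3.78), Col4a4 (2.93), Tnnt2 (2.54), Loxl2 (2.42), Baalc (2.16), Cnn1 (2.04), Postn (1.94) and Fam198b (1.93). The lower values were those of Ifit3 (-2.97), Ifit3b (-2.87), Ddx60 (-1.95), Atf3 (-1.72), Rnf213 (-1.49), the GTPase activator Tbc1d4 (-1.37), Rsad2 (-1.36), Qpctl (-1.34), Fbxo44 (-1.32) and Usp18 (-1.20). Tnfsf15 had 0 reads in the SAM libraries and 149 in the TGFβ+SAM libraries, at least 51.3-fold higher against a floor of 3 counts over the group, and its fitted difference is no bound. S100g did not pass with SAM (0.21 ± 0.25) and changed by -3.56 with NAM. The calls of Usp18, Fbxo44, Qpctl, Loxl2 and Baalc were each lost when 1 or another single library was left out. Without TGFβ+SAM replicate 3, those of Fbxo44 (-1.15, adjusted p = 0.135) and Qpctl (-1.30, adjusted p = 0.0833) were lost. Without SAM replicates 2 and 3, those of Col4a4 (2.11, adjusted p = 0.138), Rnf213 (-0.79, adjusted p = 0.34) and Rsad2 (-0.92, adjusted p = 0.322) were lost too.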

How the results depend on the processing

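Counts of genes higher and lower with TGFβ+SAM kept within 1.5 times of 1910 and 1914 under the alternatives run, DESeq2 giving 2021 and 1973, except without SAM replicates 2 and 3, whose tags go against their titles: 1094 and 1164. Leaving out each library gave 1618 to 1734 higher and 1597 to 1809 lower genes. The differences between effects moved more. Against no supplement, leaving out each library gave 75 to 122 higher genes and 52 to 115 lower ones, with 52 lower without control replicate 2, 54 without TGFβ+SAM replicate 2 and 115 without TGFβ+SAM replicate 3. DESeq2 gave 161 and 117 there, the fit without NAM replicate 3 and TGFβ+NAM replicate 1 gave 166 higher, and the fit without SAM replicates 2 and 3 gave 41 and 22. Against NAM, leaving out each library gave 62 to 180 higher and 49 to 137 lower genes, with 180 and 137 without TGFβ+NAM replicate 1. DESeq2 gave 153 and 112 there, no count filter 153 higher, the fit without NAM replicate 3 and TGFβ+NAM replicate 1 152 higher, and the fit without SAM replicates 2 and 3 37 and 23. Library totals gave 140 higher and 53 lower against NAM, a share higher of 72.5% where the reported fit gave 56.4%. The cause of these shifts was not tested, beyond fewer libraries where some were left out. Without SAM replicates 2 and 3, only SAM replicate 1 remains in its arm. No result changed direction. Of 208 named genes, 23 lost or changed a call under some alternative, 5 of them without TGFβ+SAM replicate 3 (Adk, Azin1, Csf1r, Fcer1g and Slc25a51).

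With the replicate block the counts were 1889 and 1894, 110 and 76 against no supplement, and 89 and 68 against NAM. Replicate numbers are not stated to mark pairs and same-numbered libraries did not deviate together. Depth limits genes under 5 CPM, whose median SE was 0.73 on the log2 scale against 0.098 over 100 CPM.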
